A study of Mus musculus with 8 samples.

Results

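The Period genes Per1, Per2 and Per3 were read from 9 probe sets of an Affymetrix 3' expression array: 1 for Per1, 3 for Per2 and 5 for Per3, out of 30506 probe sets in the deposited table. They are 3 of 13307 genes that probe sets of a single gene read. Every probe set that the platform annotation assigns to 1 of these genes alone was taken, dim ones included. The study measured 8 lines of primary embryonic fibroblasts of the mouse, which are cultured from whole embryos and were not immortalised. Of these, 4 lines were wild-type (WT) and 4 lacked both cryptochrome genes (Cry1-/-, Cry2-/-, called Cry DKO here). All lines came from a near-C57BL/6J background, reached by more than 7 backcrosses from BL6/129 mice. Each array held an independent line, grown asynchronously in medium with 10% serum at 3% oxygen and left untreated. The sources used here do not state the age of the embryos. Since no line was synchronised, a value stands for no single phase of the clock or of the cell cycle, and phase was not measured.

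PER proteins are the partners of the cryptochromes in the repressing arm of the circadian clock. The activator pair CLOCK and ARNTL binds E-box elements in the DNA and drives the Period and cryptochrome genes, whose proteins return to the nucleus as a complex and hold the activators back. Period transcription also answers to factors of the D-box, a second clock element, and Per1 in particular responds quickly to cAMP, serum and glucocorticoid signals. The comparison of Cry DKO with WT lines asks how the Period genes are expressed when the cryptochrome part of this complex is missing.

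Signals of the Period genes were higher in Cry DKO than in WT lines. In limma with Benjamini-Hochberg adjustment over all 24838 probe sets with 1 gene, 7 of the 9 Period probe sets passed an adjusted p of 0.05, all of them higher: the 1 of Per1, all 3 of Per2 and 3 of the 5 of Per3. Over all probe sets tested, 3.99% passed, 2.18% as higher and 1.81% as lower. Every Cry DKO line was above every WT line on 8 of the 9, as on 5.99% of all probe sets. The median difference of the 9 was 1.49 on the log2 scale, with a range of 0.74 to 2.84, beside a median of -0.0047 over all probe sets tested. All differences are Cry DKO minus WT with n = 4 lines a genotype. The sources used here do not name the log base, which was inferred from the values, and each fold rests on it.

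**Figure D1:**
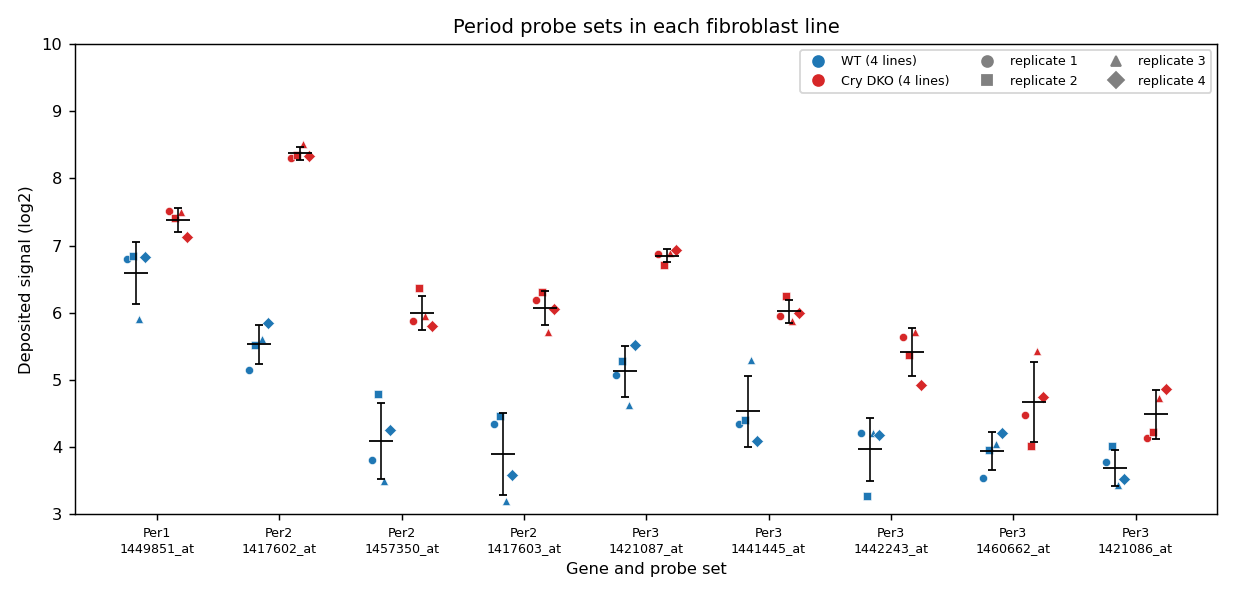
Deposited log2 signal (vertical axis) of the 9 Period probe sets (horizontal axis) in each of the 4 WT and 4 Cry DKO lines; points are lines, with a marker for each replicate number, and black bars are the mean ± SD. Cry DKO lines lie above every WT line in 8 of the 9 probe sets, with the widest separation in Per2 probe set 1417602_at.

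Arrays were alike in overall signal, with medians between 6.78 and 6.79, and no 2 arrays were identical. The deleted genes themselves did not pass, with differences of -0.50 (SE 0.21, limma adjusted p = 0.217) for Cry1 and -0.34 (SE 0.13, limma adjusted p = 0.186) for Cry2. The sources used here do not place their probes relative to the deleted parts, so both values leave the genotype labels unchecked. All 12 fibroblast markers were listed. By their probe sets of highest mean none passed in limma (4 at an unadjusted p under 0.05) and all 12 differences were negative, while 1 further probe set of Col5a1 passed. The list had means of 11.1 to 11.4 in WT and 11.0 to 11.1 in Cry DKO lines, and Pdgfra, Dcn and Lum were dim. Of 21 macrophage and blood cell markers 8 rose and none fell (background 2.77% of genes higher), with a list mean of 8.07 to 8.70 in WT and 8.70 to 9.69 in Cry DKO lines. All 21 differences were positive, and 18 had an unadjusted p under 0.05 in limma. None of these markers was near 0, the lowest having a mean of 6.29. The 5 listed of 7 endothelial markers were all dim, and of 7 epithelial markers 4 were listed, with a median difference of -0.043. Of these the keratin gene Krt8, dim in WT lines (3.84), rose by 1.29, a call that ended in 6 of the 8 fits without 1 array, and the keratin gene Krt18 had -0.30 without passing. In such bulk RNA, more cells of a type and more RNA per cell cannot be told apart.

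Per2 showed the greatest change of the Period genes. PER2 binds the cryptochromes through its C-terminal tail, and its loss disturbs daily rhythms in mice. Probe set 1417602_at, the one of highest mean, read 5.15, 5.52, 5.61 and 5.84 in WT replicates 1 to 4. In Cry DKO replicates 1 to 4 it read 8.30, 8.35, 8.52 and 8.33. The lowest Cry DKO line thus stood 2.46 above the highest WT line, and the Cry DKO lines were closer to each other (SD 0.10) than the WT lines (SD 0.29). The difference was 2.84 (SE 0.14, limma adjusted p = 1.11e-06), a 7.18-fold higher signal with a 95% interval of 5.80 to 8.90. Within the arrays, this probe set exceeded 27.4% to 36.8% of all listed probe sets in WT lines and 71.0% to 73.8% in Cry DKO lines. Only 4 of the 24838 probe sets tested had a higher difference.

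The other Per2 probe sets were dim in WT lines and moved the same way. Probe set 1417603_at read 4.34, 4.46, 3.20 and 3.59 in WT replicates 1 to 4 and 6.18, 6.30, 5.72 and 6.06 in Cry DKO replicates 1 to 4. Its difference was 2.17 (SE 0.29, limma adjusted p = 0.00272). Probe set 1457350_at read 3.81, 4.80, 3.49 and 4.26 in WT and 5.87, 6.37, 5.95 and 5.80 in Cry DKO lines. Here the difference was 1.91 (SE 0.28, limma adjusted p = 0.00375). WT replicate 3 was the lowest line on both, while on 1417602_at it was the second highest WT line after replicate 4, so the order of the WT lines was not shared between the probe sets. All 3 Per2 calls held in each of the 8 fits that leave out 1 array.

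Per3, a Period gene that mice can lose while keeping robust behavioural rhythms, rose on 3 of its 5 probe sets. Probe set 1421087_at, its highest in mean, read 5.07, 5.29, 4.63 and 5.52 in WT replicates 1 to 4. In the Cry DKO lines it read 6.88, 6.71, 6.89 and 6.93, a spread of SD 0.098 against 0.38 in WT. Every Cry DKO line lay at least 1.19 above the highest WT line. The difference of 1.72 (SE 0.19, limma adjusted p = 0.000667) is a 3.30-fold higher signal, with a 95% interval of 2.50 to 4.37.

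Of the remaining Per3 probe sets, 1441445_at had means of 4.54 ± 0.53 in WT and 6.02 ± 0.17 in Cry DKO (SD, n = 4 each) and rose by 1.49 (SE 0.25, limma adjusted p = 0.00772). WT replicate 3, the lowest line on 1421087_at, was the highest WT line here, at 5.30 against 4.09 to 4.40 in the others. Probe set 1442243_at had means of 3.97 ± 0.46 and 5.41 ± 0.35 and rose by 1.45 (SE 0.29, limma adjusted p = 0.0164), and WT replicate 2 was low at 3.27. Without Cry DKO replicate 3 its difference was 1.35 and the call ended (limma adjusted p = 0.0522).

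The 2 dimmest Per3 probe sets did not pass. On Per3 1421086_at the lines read 3.77, 4.02, 3.44 and 3.52 in WT and 4.13, 4.23, 4.73 and 4.86 in Cry DKO, without overlap. The difference was 0.80 (SE 0.29, 95% interval 0.16 to 1.44, limma adjusted p = 0.164). On 1460662_at they read 3.54, 3.96, 4.04 and 4.21 in WT and 4.49, 4.02, 5.44 and 4.75 in Cry DKO, where Cry DKO replicate 2 lay among the WT lines. Its difference was 0.74 (SE 0.32, 95% interval 0.030 to 1.44, limma adjusted p = 0.248). Both intervals include changes of over 2-fold as well as changes near 0. No detection calls were used, so dimness was read against 21 probe sets of odorant, vomeronasal and taste receptor genes, which belong to sensory tissue. Their group means ran from 1.88 to 4.87 in WT and from 1.48 to 4.57 in Cry DKO lines. WT means of 6 Period probe sets fell inside that range, namely 4 of Per3 and 2 of Per2, while in Cry DKO lines only 1421086_at (4.49) did.

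Per1, the Period gene most directly induced by hormones and serum, had the smallest called difference. Its single probe set, 1449851_at, read 6.79, 6.84, 5.90 and 6.84 in WT replicates 1 to 4. It read 7.51, 7.41, 7.50 and 7.12 in Cry DKO replicates 1 to 4. The groups did not overlap, but the lowest Cry DKO line lay only 0.28 above the highest WT line, and WT replicate 3 stood apart from the other WT lines. The difference was 0.79 (SE 0.20, limma adjusted p = 0.0440), or 1.73-fold with a 95% interval of 1.29 to 2.32. The call ended in 6 of the 8 fits without 1 array, all but those without WT replicate 3 or Cry DKO replicate 4, and the limma adjusted p ran from 0.0449 to 0.105 over the 8. Without WT replicate 3 the difference was 0.56 (SE 0.12, limma adjusted p = 0.0465), lower but with a smaller error.

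Permuting the genotypes exactly, over all 70 ways to split the 8 lines, gave a two-sided p of 0.0286 for the 8 probe sets whose groups do not overlap, which is the smallest value this design allows. For Per3 probe set 1460662_at the exact permutation p was 0.0857. The macrophage marker mean was higher in Cry DKO lines too. With that mean as a covariate, Per2 1417602_at differed by 2.98 (SE 0.22, limma adjusted p = 0.000245) and kept its call, while Per3 1421087_at had 1.72 (SE 0.29, limma adjusted p = 0.0506). Per1 had 0.68 (SE 0.31, limma adjusted p = 0.388) in that fit. The calls of the other 4 Period probe sets ended as well, at the values given in the closing section. The covariate itself differs between the genotypes.

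**Figure D2:**
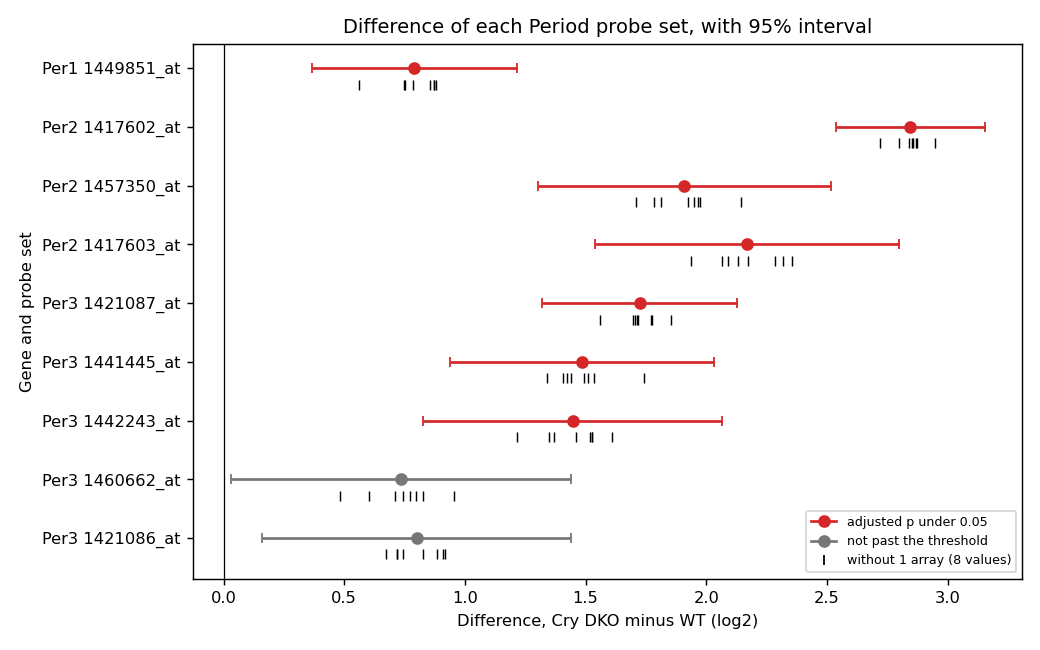
Log2 difference of each Period probe set between Cry DKO and WT lines (horizontal axis), with its 95% interval from limma; red marks an adjusted p under 0.05 and black ticks are the 8 values without 1 array. All 9 intervals lie above 0, the lowest starting at 0.030 (Per3 1460662_at). The differences run from 0.74 for Per3 1460662_at to 2.84 for Per2 1417602_at, and 2 Per3 probe sets did not pass after adjustment.

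Whether the 3 genes changed by different amounts was read from the gap between a pair of Period signals within each line, with the probe set of highest mean for each gene. Only the change of a gap between genotypes has a meaning, since signals of different probe sets are not on 1 scale. The gap of Per2 over Per1 ran from -1.65 to -0.30 in WT and from 0.78 to 1.21 in Cry DKO lines. It rose by 2.05 (SE 0.30) without overlap. The gap of Per2 over Per3 rose by 1.12 (SE 0.21), from 0.40 ± 0.40 in WT to 1.52 ± 0.13 in Cry DKO (SD, n = 4 each). That of Per3 over Per1 rose by 0.93 (SE 0.16), from -1.47 ± 0.21 to -0.53 ± 0.23. Each pair had an exact two-sided permutation p of 0.0286, also after adjustment over the 3 pairs. The call for Per2 over Per3 ended without any 1 of the 4 Cry DKO lines, at 1.08 to 1.16 (exact permutation, adjusted p = 0.0571). With a line left out the exact test has fewer splits, so its p moves in coarser steps. On these probe sets the change was greatest for Per2, then Per3, then Per1.

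With other readings of Per2 and Per3 the estimates kept this order, but not all differences passed. Per1 has 1 probe set, so its value was the same in each reading. With the mean over all probe sets of a gene, the Per2 change exceeded that of Per1 by 1.52 and that of Per3 by 1.07 (exact permutation, adjusted p = 0.0429 for both), and that of Per3 exceeded Per1 by 0.45 (adjusted p = 0.20). That mean takes in the Per2 and Per3 probe sets that were dim in WT lines. With the second probe set in mean, where Per2 (WT mean 4.09) and Per3 (4.54) are both in the dim range in WT lines, no pair passed. Per2 over Per3 was 0.42 (SE 0.50) there, which sets no order between these genes. Among probe sets of 1 gene, 13 pairs were compared and none passed in exact permutation tests after adjustment (1 pair at an unadjusted p under 0.05), a family in which the smallest possible p alone cannot pass. The widest contrast was within Per3, where 1421087_at exceeded 1460662_at by 0.99 (SE 0.33) in its change.

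**Figure D3:**
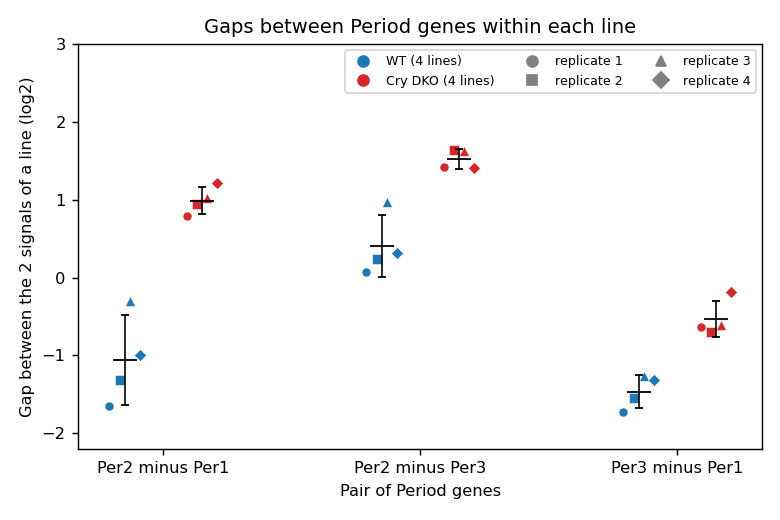
Gap between the log2 signals of each pair of Period genes within a line (vertical axis), with the probe set of highest mean for each gene; points are lines and black bars the mean ± SD of 4 lines a genotype. Every gap is higher in all Cry DKO lines than in all WT lines, while the zero of the axis has no meaning because probe sets differ in brightness.

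Promoter windows were set beside these values to show the clock elements nearest to the start sites. RefSeq windows of assembly GRCm38.p6 run from 250 bases before to 50 after a start, and the table held windows for 2 of the 3 genes, Per1 (2 windows) and Per3 (1 window). They were searched on both strands for the E-box CACGTG, its variant CACGTT, the D-box spellings TTATGTAA and TTACGTAA, and the cAMP response element TGACGTCA, with no overlap among the matches. Matches are in capitals, and each sequence reads 5′ to 3′ along the gene.

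Per1, chr11:69098699-69098998, + strand: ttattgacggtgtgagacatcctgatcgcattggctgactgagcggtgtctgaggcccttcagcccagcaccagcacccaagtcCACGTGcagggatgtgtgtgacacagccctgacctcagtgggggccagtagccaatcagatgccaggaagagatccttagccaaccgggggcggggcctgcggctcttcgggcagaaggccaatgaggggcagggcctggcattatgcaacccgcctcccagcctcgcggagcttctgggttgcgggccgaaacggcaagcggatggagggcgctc
Per1, chr11:69099902-69100201, + strand: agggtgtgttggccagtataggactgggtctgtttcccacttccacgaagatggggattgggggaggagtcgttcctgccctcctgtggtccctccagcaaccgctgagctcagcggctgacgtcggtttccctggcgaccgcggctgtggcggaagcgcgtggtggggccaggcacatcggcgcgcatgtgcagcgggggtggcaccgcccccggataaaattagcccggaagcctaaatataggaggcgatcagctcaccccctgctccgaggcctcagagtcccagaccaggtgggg
Per3, chr4:151044616-151044915, - strand: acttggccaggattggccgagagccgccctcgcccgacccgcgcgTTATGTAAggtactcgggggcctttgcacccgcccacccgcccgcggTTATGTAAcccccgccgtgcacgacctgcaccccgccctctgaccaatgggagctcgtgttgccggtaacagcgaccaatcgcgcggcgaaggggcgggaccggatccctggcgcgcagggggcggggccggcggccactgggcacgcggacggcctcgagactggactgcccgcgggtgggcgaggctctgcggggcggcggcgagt

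The upstream Per1 window held 1 E-box, CACGTG, which begins 166 bases before that start, and the downstream Per1 window held none of the 5 motifs. The Per3 window held the D-box TTATGTAA at 2 places, 205 and 158 bases before the start and 47 apart, and no E-box. Of all 32851 windows of the same length, 7.15% held CACGTG, 0.938% held TTATGTAA at least once and 0.0213% (7 windows) held it at 2 or more places. CACGTT was found in 4.68% of windows, TGACGTCA in 1.79% and TTACGTAA in 0.119%. A match describes letters and not binding, and where none was found only these letters in this window are meant.

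The genes that act with the Period genes were described from lists of their pathway, each gene by its probe set of highest mean. Over all 13307 genes read in this way, 4.88% passed, 2.77% as higher and 2.11% as lower, with a median difference of -0.0038. Of 15 activators of Period transcription 14 were listed, and 3 rose and 1 fell, with a median of 0.030. Dbp, the D-box factor, rose by 2.21 (SE 0.12, limma adjusted p = 2.04e-06) and Tef, a second D-box factor, by 0.97 (SE 0.09). The gene of the CLOCK partner itself, Arntl, fell by 1.56 (SE 0.11, limma adjusted p = 3.28e-05), whereas its paralogue Arntl2 rose by 0.81 (SE 0.18, limma adjusted p = 0.0293), a call that ended in 6 of the 8 fits without 1 array. Dbp, Arntl and Arntl2 have 2 probe sets each, and the other one passed for Dbp alone. For Tef, with 3 probe sets, 1 other passed. Clock differed by 0.0030 (SE 0.09), the cAMP factor gene Creb1 by 0.023 (SE 0.08) and Nr3c1, the glucocorticoid receptor, by 0.043 (SE 0.08).

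Of 12 other clock genes with E-boxes 7 rose and none fell, with a median of 0.52. Those called were Dbp, Tef, Ciart, a repressor of CLOCK and ARNTL (1.80), Nr1d2, a nuclear receptor that represses Arntl (0.98), the E-box repressor Bhlhe40 (0.54), the cell cycle kinase Wee1 (0.48) and Nampt, an enzyme of NAD salvage (0.45). The other of the 2 Wee1 probe sets did not pass, while 1 other passed for Nr1d2 (of 2) and for Nampt (of 3). Per2 1417602_at, at 2.84, lay above all 12, and Per1, at 0.79, lay between the called genes Bhlhe40 and Tef. Nr1d1, the close relative of Nr1d2, did not pass at 0.50 (SE 0.14, limma adjusted p = 0.0747), and the cryptochrome genes had the negative differences given above. In the list of 8 repressors, 3 rose (Ciart, Nr1d2 and Bhlhe40) and Nfil3, which opposes the D-box factors, fell by 0.46 (SE 0.11, limma adjusted p = 0.0403), a call that ended in 6 of 8 fits without 1 array. Of 10 E-box clock genes with a promoter window, 4 held CACGTG and 0 held the Per3 spelling TTATGTAA.

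Lists of genes whose proteins bind or modify PER were set beside the 4.88% of all genes that passed, and counts as small as theirs are not a result about the lists. Of 14 members of PER complexes 12 were listed and 1 rose, Sfpq, an RNA-binding protein that brings a deacetylase complex to Period promoters, by 0.31 (SE 0.08, limma adjusted p = 0.0438). Its call ended in 7 of 8 fits without 1 array, and of its 6 probe sets no other passed. The list median was -0.030. Of 16 genes of PER modification and turnover 15 were listed, and none passed in limma, with 3 at an unadjusted p under 0.05. Csnk1e, a casein kinase that marks PER for degradation, differed by -0.18 (SE 0.06, limma adjusted p = 0.104) and the phosphatase subunit gene Ppp1cb by 0.24 (SE 0.09, limma adjusted p = 0.186). Csnk1d, the other main PER kinase, differed by -0.087, and the ubiquitin ligase genes Btrc and Fbxw11 had -0.092 and 0.067.

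Signal-induced genes, a class to which Per1 also belongs, were read as well, beside the 4.88% of all genes that passed. Of 14 immediate early genes none rose and 1 fell, the phosphatase gene Dusp1, by 0.33 (SE 0.07, limma adjusted p = 0.0257), a call that ended in 6 of 8 fits without 1 array. Fos had a difference of 0.13 and Egr1 one of 0.13, neither past the threshold. Over the list the differences ran from -0.33 to 1.02, with 10 of 14 positive and a median of 0.086. Of 9 glucocorticoid receptor targets Tsc22d3, an anti-inflammatory leucine zipper protein, rose by 0.51 (SE 0.11, limma adjusted p = 0.0203), a call that ended without WT replicate 1, WT replicate 2 or Cry DKO replicate 2. In the same list Cdkn1c, which restrains cyclin-dependent kinases, fell by 1.17 (SE 0.12, limma adjusted p = 0.000488), as did Dusp1, and the list median was -0.20. Fkbp5 had a difference of -0.0017.

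**Figure D4:**
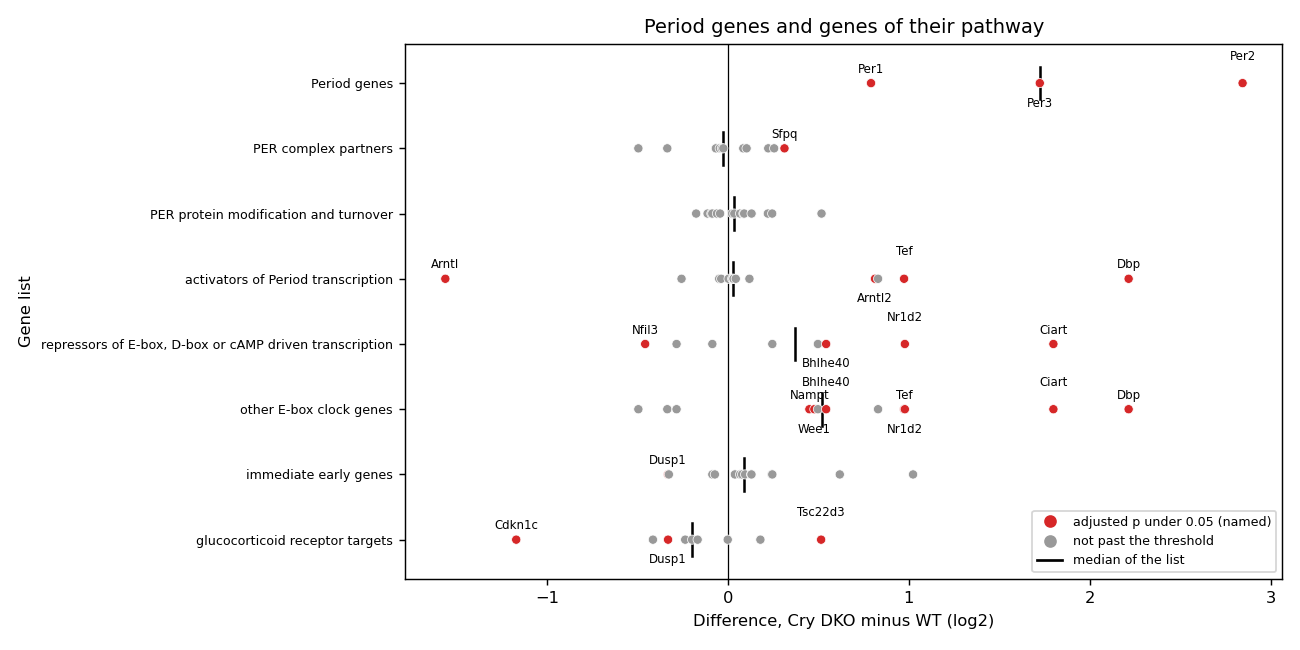
Log2 difference between Cry DKO and WT lines (horizontal axis) of the Period genes and of the genes of each pathway list (rows), by the probe set of highest mean; red points passed an adjusted p of 0.05 and are named, and black bars are list medians. The Period genes at 0.79, 1.72 and 2.84 lie among or above the called E-box clock genes, while lists of PER partners, PER turnover and immediate early genes have medians near 0.

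Genes most like each Period gene were found by Pearson's r over the 8 arrays among 8909 genes above the 40th percentile of mean signal, as a description without a test. The 8 points fall into the 2 genotypes, so r also holds the difference between them. For Per2 the highest were Lyar, a nucleolar protein, Set, a histone chaperone, Rbm45, an RNA-binding protein, Nampt and Mthfd1, a folate enzyme, with r from 0.983 to 0.987. Without WT replicate 1, the line with the lowest Per2 1417602_at signal, 2 of these 5 stayed among the first 20. For Per3 they were Arpin, an inhibitor of actin branching, Mthfd1, Hmga2-ps1, a pseudogene whose signal is uncertain for that reason, Ciart and Cenpe, a kinetochore motor, with r from 0.980 to 0.987. For Per1 they were Limd1, Hrob, Ogfr, Shmt1 and Vps13a, with r from 0.958 to 0.973. None of those 5 stayed among the first 20 without WT replicate 3, the line with low Per1.

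Ogfr and Arpin also came out when only line-to-line variation within a genotype was used. For Per1 that variation includes the low WT replicate 3, without which Ogfr left the first 20 above. By deviations from the genotype means over the 8 arrays, Per1 was most like 1700030K09Rik, Ogfr and Nfyc (r from 0.964 to 0.971), Per2 most like Med9, Ccdc84 and Sap130 (0.944 to 0.960) and Per3 most like Arpin, Mpnd and Tmem216 (0.934 to 0.955). Among the Period genes, the deviations of Per1 and Per3 had an r of 0.77, those of Per2 and Per3 one of 0.30 and those of Per1 and Per2 one of -0.092. Without WT replicate 3 these became -0.068, 0.85 and 0.19, so they rest on that line. No WT line was low throughout: WT replicate 3 was the lowest WT line on 5 of the 9 Period probe sets and the highest on 2 (tied with WT replicate 1 on 1), WT replicate 2 was the highest on 4 and the lowest on 1, and among Cry DKO lines each was the lowest on 2 or 3.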

How the data were processed

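Total RNA (5 ug per line) was labelled with biotin and hybridised, 1 array per line, per the labels' protocols. The authors deposited 1 table of log2 values. The submitters' processing notes name GCOS and no version, and the sources used here state neither the probe summary nor the normalisation nor the choice of listed probe sets. Array quantiles from 1% to 99% differ by at most 0.17, so values were used as deposited, and a change shared by all RNA would be hidden. Of 30506 probe sets, 61 controls, 658 with several genes and 4949 unnamed ones were left out. The 24838 others carry 1 gene (24757 identifiers found in GRCm38.p6, used for symbols).

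Genotypes came from the sample titles and were compared with limma 3.58.1 (R 4.3.3), using an intensity trend, no covariate and no filter, since Period members include dim probe sets. P-values reflect how far independent lines of a genotype differ. In limma the spread of each probe set is also drawn toward that of probe sets of similar signal. Single values were also compared with exact permutation tests. Precision is limited by the number of arrays and by dimness: within a genotype the SD had a median of 0.55 where the mean signal was under 5 and of 0.097 where it was over 9. Members, lists and rules were chosen with earlier results of these data known. Genes were named by rule: the Period genes, Cry1 and Cry2; from each list up to 6 called members or the 2 of smallest p; and the 5 and 3 genes most like each Period gene. Other named genes (Krt8, Krt18, Col5a1, Wee1, Pdgfra, Dcn, Lum, Clock, Creb1, Nr3c1, Nr1d1, Csnk1d, Btrc, Fbxw11, Fos, Egr1 and Fkbp5) were chosen after their values were seen.

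The fit was tested on simulated normal values (24838 probe sets, 5 runs with 200 changed each). They were drawn from the observed means and the moderated spreads that the fit itself estimated, so those spreads were not tested. The fit called 39.7% of probe sets changed by 0.5 on the log2 scale, 73.1% of those changed by 1, 91.5% of those changed by 2 and 0.0398% of unchanged ones, with probe sets drawn independently. These rates are over all signal levels and are not given for dim probe sets alone. Alternatives were a replicate block, filters, probe set rules, normalisations, empirical Bayes settings, array weights, covariates and each array left out.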

Additional observations from a re-analysis of the deposited data

Results flagged for a closer look

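A line standing apart from the other 3 of its genotype was looked for with Dixon's 95% criterion in 96 groups of Period probe sets, gaps and named genes. It was met 6 times, where chance gives about 1 in 20 groups. Per1 1449851_at was 5.90 in WT replicate 3, against 6.79 to 6.84 in the others. Per3 1442243_at was 3.27 in WT replicate 2, against 4.18 or more in the others. Shmt1, an enzyme of folate metabolism and 1 of the genes most like Per1, was 5.62 in WT replicate 3, against 6.28 to 6.30. Nampt was 8.29 in WT replicate 4, against 8.14 to 8.16. Nr1d2 was 10.94 in Cry DKO replicate 2, against 11.01 to 11.03. Vps13a was 6.77 in Cry DKO replicate 4, against 6.96 to 7.00.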

How the results depend on the processing

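The direction of all 9 Period probe sets was the same in each of the 19 alternative fits that tested them, and Per2 1417602_at passed in each. Fits that change only the error, the block or the probe sets tested return the same difference, so their direction was fixed in advance. Leaving out 1 array cannot reverse groups that do not overlap. Per2 1417602_at reached the filter's floor of 6.48 only through its Cry DKO lines (mean 8.37, against 5.53 in WT). Over all probe sets the count of 992 calls was 265 without the intensity trend, 216 on each probe set's own spread, 31 with the macrophage mean as a covariate, 605 with a covariate for the sex of a line, 1324 with a replicate block and 467 to 738 without 1 array. Of 14 called pathway genes 8, 7 and 5 were called in the first 3 of these fits and 9 to 12 without 1 array. Calls of Period probe sets ended as follows, with the cause not tested. Without the trend, Per1 (0.79, adjusted p = 0.145) and Per3 1442243_at (1.45, adjusted p = 0.0542) did not pass in limma. On their own spread, Per1 (0.79), Per2 1457350_at (1.91) and 1417603_at (2.17), and Per3 1441445_at (1.49) and 1442243_at (1.45) did not pass, with adjusted p from 0.0543 to 0.198. With the macrophage covariate, Per1 (0.68), Per2 1457350_at (2.13) and 1417603_at (2.03), and Per3 1421087_at (1.72), 1441445_at (1.56) and 1442243_at (1.07) did not pass, with adjusted p from 0.0506 to 0.388. With the sex covariate, Per1 (0.78, adjusted p = 0.0824) did not pass in limma. Sex was read from Y-linked signal, low in WT replicate 1 and in Cry DKO replicates 1 and 4, so it was not balanced between genotypes. Without 1 array, Per1 ranged from 0.56 to 0.88 and Per3 1442243_at from 1.21 to 1.61.

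Between genes, Per3 over Per1 did not pass with the mean of all probe sets (0.45), and no pair did with the second probe set in mean (Per2 over Per1 1.12, Per2 over Per3 0.42, Per3 over Per1 0.70). Per2 over Per3 ranged from 1.01 to 1.31 without 1 array and did not pass without any 1 of the Cry DKO lines (exact permutation, adjusted p = 0.0571). Small differences changed sign for 1700030K09Rik (0.0085 with array weights, -0.12 to 0.030 without 1 array), Ccdc84 (-0.038 to 0.27) and Nfyc (-0.012 to 0.075).

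Lines with the same number share only that number by the labels. Their deviations correlated at 0.046 to 0.29. Each WT line correlated best with the Cry DKO line of its own number, a hint from the data and not the design. With the replicate block the balanced design fixes the gaps between genes at the same 2.05, 1.12 and 0.93. Per1 had an adjusted p of 0.0433 and Per2 1417602_at 2.66e-05 in limma, and no Period call changed. Of 36 other genes named by rule, over the 19 fits, 595 values kept their direction and side of the threshold and 81 lost a call.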
